A study of Mus musculus with 2 samples.

Results

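The cells described here are growth plate chondrocytes with high Col10a1, the gene of type X collagen, from a single-cell RNA sequencing (scRNA-seq) experiment on bones of young mice. A cell was counted as a member when it had 500 to 6000 detected genes and under 25% mitochondrial UMIs (unique molecular identifiers, each standing for 1 captured RNA molecule), when at least 3 of the 5 cartilage genes Acan, Col9a1, Col9a2, Matn3 and Snorc had a UMI, when Col10a1 made up at least 1% of its UMIs, and when neither Ptprc, a gene of blood cells, nor Cdh5, a gene of endothelial cells (ECs), had any. The rule found 556 cells in the Control library and 882 in the Dach1OE library, 1438 of the 55783 cells that passed the limits on genes and mitochondrial UMIs, out of 60748 in the tables. The members were thus chosen by their measured Col10a1, so its level in them is a description, and genes that vary with it across chondrocytes are described without a test. Cells that met every part of the rule but had Col10a1 below 1% of their UMIs, 3807 in Control and 5248 in Dach1OE, are called the other chondrocytes.

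The study compared bones of mice in which the transcription factor Dach1 was overexpressed in capillary ECs with bones of littermates. Both libraries came from C57BL/6 mice at postnatal day 30 that carried the Dach1OE +/f allele and received tamoxifen. Control mice had no Cre, and Dach1OE mice also carried Apj CreERT2, a tamoxifen-dependent recombinase driven by the gene of the apelin receptor, which is active in ECs of capillaries, and chondrocytes were not the cells it was meant to reach. Femur and tibia were used after the epiphysis had been detached, and cells carrying lineage markers, CD45 or CD117 were depleted. The labels list male and female mice, and 2 mice were pooled in each library according to the methods. With 1 library per group there was no replicate, so no difference between the libraries carries a test, and every interval below is a 95% interval for counting error alone.

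Hypertrophic chondrocytes are the last stage of the cartilage columns that lengthen bones. They leave the cell cycle, swell, replace their surroundings with a matrix rich in type X collagen and signal to younger chondrocytes through Indian hedgehog (Ihh). At the base of the column they express genes of mineralizing matrix, matrix proteases and the vessel growth factor VEGF-A, where capillaries invade the cartilage.

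The other markers of the cell type differed in how far they set these cells apart. Ihh, the hedgehog ligand, was at 1025 CPM in Control and 1006 CPM in Dach1OE in the Col10a1-high chondrocytes (CPM, UMIs per 1000000 UMIs, summed over the cells of a class) and at 304 and 234 CPM in the other chondrocytes. Fxyd3, a regulator of the sodium pump, was at 1054 and 698 CPM against 390.2 and 160.1 CPM. Panx3, a channel protein of hypertrophic chondrocytes and osteoblasts, was at 2857 and 2833 CPM against 2227 and 1929 CPM, less than 2-fold apart. Ihh and Fxyd3 were higher in Col10a1-high than in other chondrocytes of the same library in both libraries, by log2 1.75 and 2.10 for Ihh and 1.43 and 2.12 for Fxyd3 in Control and Dach1OE, and Panx3 by 0.36 and 0.55. Panx3 was higher, at 3535 and 3313 CPM, in the 1409 and 1692 other chondrocytes that held an Ihh UMI than in the Col10a1-high cells, and was at 980.5 and 895 CPM in those without one. All 5 of the cartilage genes were found in 506 of 556 cells in Control and 832 of 882 in Dach1OE.

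The 3 genes that the description turns on are placed here in the mouse genome, build GRCm38, from the GENCODE vM21 annotation. Col10a1 lies at chr10:34389981-34397085 (+ strand), inside the gene Nt5dc1, which is read from the opposite strand of the same chromosome from 34288288 to 34418552. Ibsp, the gene of bone sialoprotein, lies at chr5:104299171-104311469 (+ strand), and Mmp13, the gene of collagenase 3, at chr9:7272514-7283331 (+ strand). Their promoters, 250 bases before to 50 after the start, are printed 5′ to 3′ on the strand of the gene from RefSeq, GRCm38.p6, because Col10a1 defined the cells and Ibsp and Mmp13 are late genes whose levels varied along its range. They cover chr10:34389731-34390030 (+ strand) for Col10a1, chr5:104299037-104299336 (+ strand) for Ibsp and chr9:7272264-7272563 (+ strand) for Mmp13, and capitals mark the RUNX core TGTGGT or its reverse complement ACCACA and the AP-1 motif TGANTCA, which were searched on both strands.
Col10a1: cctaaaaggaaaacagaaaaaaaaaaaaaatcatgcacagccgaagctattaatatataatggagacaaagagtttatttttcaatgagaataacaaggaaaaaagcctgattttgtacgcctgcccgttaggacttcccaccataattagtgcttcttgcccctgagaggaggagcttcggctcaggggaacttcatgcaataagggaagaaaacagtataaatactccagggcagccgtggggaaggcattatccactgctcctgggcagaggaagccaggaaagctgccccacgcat
Ibsp: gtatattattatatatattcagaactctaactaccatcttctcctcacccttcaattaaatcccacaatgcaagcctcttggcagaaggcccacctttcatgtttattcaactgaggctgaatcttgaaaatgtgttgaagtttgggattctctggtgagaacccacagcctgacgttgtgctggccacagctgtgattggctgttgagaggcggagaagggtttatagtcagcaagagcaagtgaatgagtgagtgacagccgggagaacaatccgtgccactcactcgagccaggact
Mmp13: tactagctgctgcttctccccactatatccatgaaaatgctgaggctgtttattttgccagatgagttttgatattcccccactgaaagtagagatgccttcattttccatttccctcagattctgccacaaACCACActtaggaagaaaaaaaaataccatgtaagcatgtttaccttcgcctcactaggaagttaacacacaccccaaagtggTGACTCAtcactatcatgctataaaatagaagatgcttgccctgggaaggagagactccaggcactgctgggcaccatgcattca
RUNX factors drive chondrocyte hypertrophy and AP-1 is the Fos and Jun dimer. The Mmp13 window held 1 RUNX core, ACCACA, with its first base at position -118 from the start, and 1 AP-1 motif, TGACTCA, at position -35, with the start counted as 0. RefSeq and GENCODE place the start of Ibsp at different bases. The Col10a1 and Ibsp windows held neither motif. Of all 32851 promoters of this length in the table, 16.8% held the RUNX core and 7.81% the AP-1 motif.

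Col10a1 varied over a wide range without a gap. No Col10a1 UMI was found in 59.1% of the chondrocytes of Control and 50.7% of those of Dach1OE, and the remaining cells spread from traces to a maximum of 26.3% of UMIs in Control and 37.4% in Dach1OE. Traces above 0 and up to 0.1% were found in 20.7% and 27.9%. At equal depth 8.50% and 14.4% of ECs, which should lack it, also had a Col10a1 UMI. The part of free RNA in the traces was not tested. In the Col10a1-high cells the median share of UMIs from Col10a1 was 4.10% in Control and 4.76% in Dach1OE. In bins that double in width the cells had a second high above the limit of 1%, with 2.27% of the chondrocytes of Control and 1.89% of those of Dach1OE at 0.32% to 0.64%, below the limit, and 3.78% and 3.64% at 2.56% to 5.12%. Just outside the limit, at 0.75% to 1%, the 43 Control and 50 Dach1OE cells had Ihh at 922 and 689.9 CPM and Ibsp at 1180.3 and 2066 CPM. Just inside it, at 1% to 1.25%, the 37 and 53 cells had Ihh at 581 and 946 CPM and Ibsp at 177 and 543 CPM. Ihh was lower just inside the limit in Control and higher in Dach1OE, and Ibsp was lower just inside it in both.

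**Figure D1:**
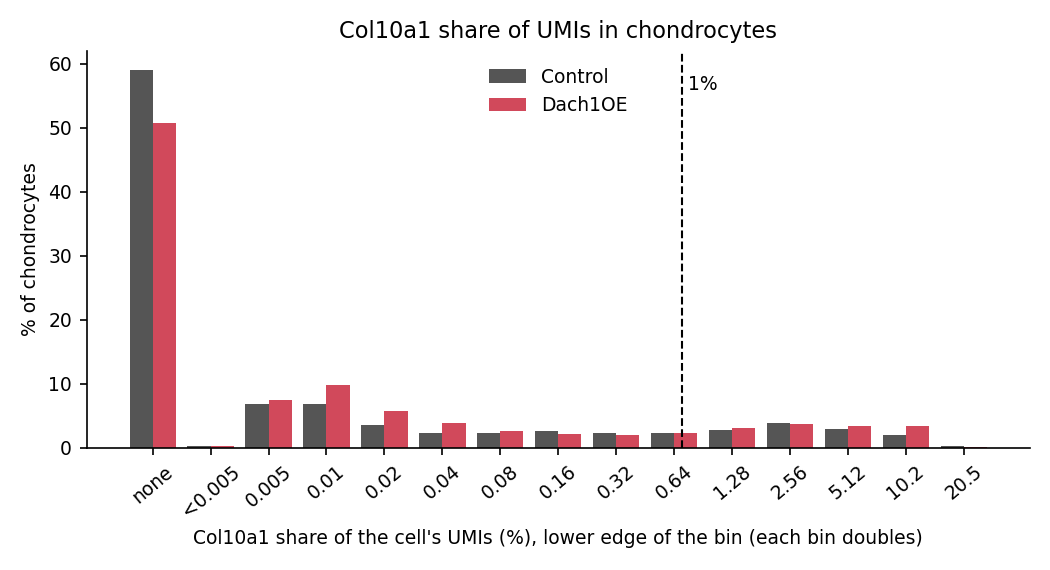
Share of chondrocytes (y axis, percent) by the share of their UMIs that came from Col10a1 (x axis, percent, bins that double in width), in the Control and Dach1OE libraries; the bars at the left are cells without a Col10a1 UMI, 59.1% and 50.7%. The bars have no gap at the limit of 1%, and are higher at 2.56% to 5.12%, with 3.78% and 3.64%, than at 0.32% to 0.64%, with 2.27% and 1.89%.

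The libraries were alike in depth. Col10a1-high chondrocytes had a median of 11166 UMIs in Control and 10727 in Dach1OE, with a range over both libraries of 900 to 34210, against 9446 and 8999.5 in the other chondrocytes. Dach1, the targeted gene, was higher in ECs of Dach1OE, at 5.20 and 180.2 CPM in Control and Dach1OE, and was at 2.88 and 2.83 CPM in the Col10a1-high chondrocytes. The libraries shared 1049 cell barcodes, which 19 of the Control members and 25 of the Dach1OE members carried, and no barcode was a member in both. Scrublet, a doublet caller, marked 6.62% and 6.74% of all cells that passed the limits in Control and Dach1OE, and 2.34% and 2.27% of the members. RNA of cartilage and bone genes was also found in cells that should lack it, as free RNA or doublets can give. With every cell drawn down to 2000 UMIs, Col10a1 had a UMI in 8.50% and 14.4% of ECs in Control and Dach1OE and Col1a1 in 66.6% and 75.1%.

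Within each library the 15 genes furthest above the other chondrocytes included Aldh1a3, Loxl4, Irx5, Bmp2, Ibsp, Hpgd, Spp1, Bmp6 and F13a1 beside Col10a1, and 9 of the 10 genes furthest below belonged to cell division. Of 10377 genes with at least 50 UMIs in the Col10a1-high cells of both libraries together, 406 (3.91%) were at least 2-fold higher in Control and 445 (4.29%) in Dach1OE, and 835 (8.05%) and 881 (8.49%) were at least 2-fold lower. In both libraries 346 were higher and 633 lower by this much. The rule chose the cells within this comparison, so these are descriptions. The minimum of 50 UMIs was counted in the Col10a1-high cells alone, so genes low in them can be missing from the lower counts.

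Aldh1a3, an enzyme that makes retinoic acid, was at 443 and 479.7 CPM in the Col10a1-high cells of Control and Dach1OE and at 13.8 and 13.0 CPM in the other chondrocytes, the ratio next in size to that of Col10a1 itself (50881 and 57408 CPM against 442 and 439 CPM). Loxl4, a lysyl oxidase that cross-links collagen, was at 392 and 478 CPM against 22.4 and 23.2 CPM. F13a1, the transglutaminase of coagulation factor XIII, which also joins matrix proteins, was at 698 and 698 CPM against 90.5 and 55.0 CPM. Both are enzymes that bind matrix proteins to each other. Of the 18 measured genes for collagen folding and cross-linking Loxl4 and Tgm2, a tissue transglutaminase, were at least 2-fold higher, and the median log2 ratio was -0.23 in Control and -0.30 in Dach1OE, against -0.22 in Control and -0.23 in Dach1OE over all genes.

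Among secreted signals, Bmp2 was at 200.3 and 152 CPM against 19.8 and 12.9 CPM and Bmp6 at 194 and 224 CPM against 24.2 and 21.4 CPM, both bone morphogenetic proteins. Their inhibitor Nog was at 179.8 and 164 CPM against 66.3 and 55.8 CPM, and Frzb, which binds Wnt ligands, at 199 and 186 CPM against 52.1 and 43.4 CPM. Over the 15 measured Wnt genes 2 were at least 2-fold higher in each library and 4 lower in Control and 3 in Dach1OE, with a median log2 ratio of -0.20 in Control and -0.17 in Dach1OE. Bmp7 was lower, at 12.3 and 11.5 CPM against 45.3 and 52.2 CPM, and over the 20 of 24 measured genes of BMP and TGF-beta signalling 6 were at least 2-fold higher and 4 lower in each library, with a median log2 ratio of -0.17 in Control and -0.19 in Dach1OE.

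Ibsp and Spp1 encode acidic phosphoproteins that bind mineral. Ibsp was at 3672 and 4691 CPM in the Col10a1-high cells against 378 and 332 CPM in the other chondrocytes and 1881 and 1863 CPM in osteoblasts (cells with Bglap at 1% or more of UMIs), so Col10a1-high chondrocytes as a class held more Ibsp per UMI than the osteoblasts did, although the members with Col10a1 under 4% of UMIs held less, at 363 and 703 CPM at 1% to 2% and 1512 and 1816 CPM at 2% to 4%. Spp1, or osteopontin, was at 1797 and 1966 CPM, 202 and 224 CPM and 541 and 618 CPM in the same 3 classes. Alpl, the alkaline phosphatase that frees phosphate for mineral, was at 1490.0 and 1609.6 CPM against 409.8 and 375 CPM in the other chondrocytes. Of the 7 genes listed for late hypertrophic and mineralizing cartilage 6 were measured, of which 4 were at least 2-fold higher in Control and 5 in Dach1OE, with a median of 2.20 in Control and 2.33 in Dach1OE. Vegfa was at 121 and 186 CPM against 75.8 and 80.2 CPM, and Mmp9, a gelatinase abundant in osteoclasts, was lower, at 9.45 and 34.3 CPM against 43.1 and 99.5 CPM. Phospho1, the seventh gene, had 3 UMIs in all Col10a1-high cells together, too few to be measured.

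Cell division genes were lower. Top2a, which untangles DNA before mitosis, was at 11.9 and 13.2 CPM in the Col10a1-high cells against 142 and 161 CPM in the other chondrocytes. Ccna2, the S phase cyclin A2, was at 5.45 and 8.27 CPM against 102 and 114 CPM, and Birc5, or survivin, at 7.53 and 12.4 CPM against 121 and 132 CPM. Of the 14 measured cell cycle genes 13 were at least 2-fold lower in each library, with a median of -2.86 in Control and -3.05 in Dach1OE. The inhibitors of cyclin-dependent kinases Cdkn1c (p57) and Cdkn1a (p21) went the other way, with Cdkn1c at 2671 and 2866 CPM against 1162 and 1185 CPM and Cdkn1a at 563 and 490.1 CPM against 163 and 108 CPM. In the other chondrocytes with an Ihh UMI Cdkn1c was at 1984 and 2197 CPM, under 2-fold below the Col10a1-high cells, and Cdkn1a at 232 and 151 CPM. The division genes lay in between in those cells. Top2a was at 53.0 and 66.5 CPM there, Ccna2 at 40.3 and 45.0 CPM and Birc5 at 48.1 and 54.7 CPM.

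Members of the Ihh and PTHrP circuit were found on both sides. The ligand Ihh, its release factor Disp1 (105 and 91.3 CPM against 27.2 and 22.1 CPM) and Pth1r, the receptor of PTHrP (1732 and 1687 CPM against 941 and 772 CPM), were higher in the Col10a1-high cells. Of the genes that hedgehog signalling induces Ptch1 was lower, at 43.9 and 40.4 CPM against 132 and 134 CPM, with Gli1 at 1.44 and 1.26 CPM against 17.8 and 21.6 CPM and Hhip at 3.04 and 3.14 CPM against 49.9 and 64.6 CPM. Pthlh, the gene of PTHrP itself, which the upper growth plate makes, had 5 UMIs in Control and 1 in Dach1OE. Gli1, Hhip and Pthlh had fewer than the 50 UMIs set as the minimum in the Col10a1-high cells, so they are missing from the counts that follow. Over the 7 measured of 12 listed genes, 2 were at least 2-fold higher in Control and 3 in Dach1OE, and Ptch1 was at least 2-fold lower.

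Some transcription factors of hypertrophy were higher. Mef2c, which switches on Col10a1, was at 746 and 706 CPM in the Col10a1-high cells against 348 and 308 CPM in the other chondrocytes, Mef2d at 151 and 143 CPM against 55.4 and 49.6 CPM and Foxa2 at 129.6 and 107 CPM against 38.2 and 37.2 CPM. In the other chondrocytes with an Ihh UMI Mef2c was at 528 and 485 CPM, under 2-fold below the Col10a1-high cells, Mef2d at 73.8 and 67.2 CPM and Foxa2 at 62.4 and 66.9 CPM. Runx2, the main factor of hypertrophy, was at 209 and 195 CPM against 155 and 138 CPM, a difference under 2-fold. Sox9, which keeps chondrocytes in the cartilage state, was close, at 1227 and 1088 CPM against 1396 and 1210.2 CPM. Irx5, a homeobox factor outside the list, differed more, at 135 and 172 CPM against 9.95 and 11.1 CPM. Of 20 measured transcription factors 4 were at least 2-fold higher in each library, and 4 were lower in Control and 2 in Dach1OE, with a median log2 ratio of -0.27 in Control and -0.23 in Dach1OE.

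Most cartilage matrix genes were at similar levels in both kinds of chondrocytes. Col2a1, the type II collagen of cartilage, was at 74443 and 74109 CPM against 72065 and 72516 CPM, and none of the 7 cartilage collagens differed by 2-fold in either library. Col9a1 and Col9a2, which are among these collagens, were also among the genes by which both kinds of cells were chosen. Among the other matrix genes the small proteoglycan Prelp was lower, at 528 and 414 CPM against 2614 and 2365 CPM, and Ucma, of the upper cartilage, was at 375 and 396 CPM against 975 and 1224 CPM. Map1lc3b, the autophagy protein LC3B, was at 836 and 798 CPM against 218 and 187 CPM, and 3 of the 13 measured genes of cell death and autophagy in Control and 4 in Dach1OE were at least 2-fold higher, with a median of 0.65 in Control and 0.77 in Dach1OE. The 11 listed genes that cell dissociation induces had a median log2 ratio of 0.44 in Control and 0.92 in Dach1OE. Of these, 2 in Control and 5 in Dach1OE were at least 2-fold higher, and their part in the other differences was not tested.

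Some of these genes overlap a neighbour in the genome. Nt5dc1 was at 148 and 166 CPM against 14.6 and 15.1 CPM, and since Col10a1 lies within it and the counting is not stated to use strand, its reads and those of Col10a1 cannot be told apart. Fxyd3 overlaps Lgi4, Bmp6 overlaps Txndc5, and Fgfr1, Jun, Prelp and F13a1 each overlap an antisense gene. Of genes compared between the libraries below, Car5a overlaps Gm20388, Gm26909 overlaps Polb, Prg4 overlaps Tpr, and Gon7 overlaps Gm28051 and Gm20604 on its own strand. Ccna2 overlaps Exosc9 and Itga7 overlaps Mettl7b. How far reads are shared at these places was not tested, and the counts of these genes are uncertain for that reason.

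The Col10a1-high cells were not uniform. They were divided by the Col10a1 share of UMIs into ranges of 1% to 2% (128 cells in Control, 161 in Dach1OE), 2% to 4% (142 and 212), 4% to 8% (139 and 217) and 8% or more (147 and 292), and levels were summed in each. Median UMIs per cell in these ranges were 12759.5, 13092, 11335 and 9094 in Control and 12563, 12801, 11455 and 8557 in Dach1OE, so the last range was the shallowest. Col10a1 is part of the total, and leaving its UMIs out of the totals raised each log2 ratio of the last range to the first equally within a library, for Jam2 from 5.12 to 5.28 in Control, and changed no direction among the named genes. From the first range to the last, 892 of 10377 genes (8.6%) were at least 2-fold higher in Control and 926 (8.92%) in Dach1OE, and 1887 (18.2%) and 1531 (14.8%) at least 2-fold lower. These counts include many genes with few UMIs in a range.

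Mineral-binding proteins were among the genes that differed most. Over the 4 ranges Ibsp was at 363, 1512, 4503 and 9916 CPM in Control and 703, 1816, 5048 and 10536 CPM in Dach1OE. Spp1 was at 147, 704, 2321 and 4795 CPM in Control and 245, 602, 1305 and 5421 CPM in Dach1OE. Both were higher in each of these ranges than in the one before, in both libraries. Below the limit, at 0.1% to 1% Col10a1, Ibsp was at 807 and 877 CPM and Spp1 at 443 and 328 CPM in Control and Dach1OE. These levels were above those of the 1% to 2% range. Dmp1, another acidic phosphoprotein of the same family, was at 21.8, 1.62, 31.3 and 112 CPM in Control and 2.03, 17.0, 23.7 and 93.8 CPM in Dach1OE, with its highest level again in the last range. With Mepe, these genes lie within 238 kb of chromosome 5, and all 4 of them were higher at 8% or more than at 1% to 2% in both libraries, although Mepe had few UMIs, at 0, 1.08, 1.91 and 4.76 CPM in Control and 0.509, 0, 0 and 4.41 CPM in Dach1OE.

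Mmp13, which cleaves cartilage collagens, was at 14.1, 1203, 2269.6 and 1945 CPM in Control and 371, 682, 1032 and 2024 CPM in Dach1OE. It was highest in the third range in Control and in the last in Dach1OE. Timp3, an inhibitor of such proteases, was at 317, 487, 616 and 1190.1 CPM in Control and 292, 353, 622 and 1174 CPM in Dach1OE. The matrix Gla protein gene Mgp, an inhibitor of calcification, was at 897, 851, 2706 and 7076 CPM in Control and 574, 894, 1496 and 6834 CPM in Dach1OE. Its summed level thus differed between the first and last range in the same direction as the genes of mineral formation. The share of cells with an Mgp UMI, taken at equal depth as described below, did not follow this order. Over the ranges it was 57.4%, 48.2%, 40% and 52.9% in Control and 48.4%, 48.5%, 40.6% and 58.4% in Dach1OE. Alpl differed by under 2-fold, at 1169.6, 1507, 1559 and 1777 CPM in Control and 1306, 1465, 1796 and 1819.9 CPM in Dach1OE.

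Vegfa, the gene of VEGF-A, was at 49.99, 53.4, 68.3 and 376 CPM in Control and 63.1, 74.5, 95.2 and 492 CPM in Dach1OE, with its highest level in the last range. Fgfr1, a receptor of fibroblast growth factors, was at 50.6, 80.4, 189 and 609.8 CPM in Control and 41.7, 60.1, 153 and 694 CPM in Dach1OE. Fgfr3, the receptor that restrains chondrocyte growth, had the opposite order, at 643, 589, 458 and 331 CPM in Control and 657, 621, 455 and 315 CPM in Dach1OE. Over the 9 measured FGF genes the median log2 ratio of the last range to the first was 0.42 in Control and 0.088 in Dach1OE. Ptgs2, the inducible cyclooxygenase of prostaglandin synthesis, was at 1.28, 3.78, 32.5 and 135 CPM in Control and 5.09, 9.45, 8.99 and 161 CPM in Dach1OE, and Hpgd, which degrades prostaglandins, at 8.97, 34.0, 159 and 441 CPM in Control and 22.4, 42.7, 165 and 407 CPM in Dach1OE. Synthesis and breakdown genes of prostaglandins were both highest in the cells with the most Col10a1.

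Jam2, Itga7, Sulf1 and Lipg were the other genes of the 8 with the largest ratios of the last range to the first. Jam2, a junctional adhesion molecule, differed from 3.20 to 111 CPM in Control and from 2.54 to 181 CPM in Dach1OE between the first and last range. Itga7, a laminin-binding integrin, differed from 5.13 to 125 CPM in Control and from 4.07 to 144 CPM in Dach1OE, Sulf1, which trims heparan sulfate, from 2.56 to 109.6 CPM in Control and from 4.58 to 126 CPM in Dach1OE, and the lipase gene Lipg from 6.41 to 150.1 CPM in Control and from 6.61 to 124 CPM in Dach1OE. Loxl4 differed from 94.9 to 1215 CPM in Control and from 107 to 1259 CPM in Dach1OE. Aldh1a3 was at 123 and 149.5 CPM in the first range and 1102 and 1126 CPM in the last. Over the 6 measured genes of late hypertrophic and mineralizing cartilage the median log2 ratio of the last range to the first was 3.84 in Control and 2.71 in Dach1OE, against -0.25 in Control and -0.19 in Dach1OE over all genes.

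The markers of the cell type did not all follow Col10a1. Ihh was at 817, 982, 809 and 1616 CPM in Control and 875, 811, 816 and 1504 CPM in Dach1OE, highest in the last range. Panx3 was at 3745, 3494, 2636 and 1096 CPM in Control and 4140.2, 3751, 2497 and 1160.3 CPM in Dach1OE, lowest where Col10a1 was highest. Fxyd3 was at 952, 1074, 959 and 1271 CPM in Control and 522, 606, 788 and 847 CPM in Dach1OE, highest in the last range. In cells with Col10a1 at 0.1% to 1% of UMIs Panx3 was at 3974 CPM in Control and 3601 CPM in Dach1OE.

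Other genes were lower with more Col10a1. Ppa1, an inorganic pyrophosphatase, was at 4745, 3551, 2014 and 308 CPM in Control and 4761, 4002, 2416 and 267 CPM in Dach1OE, and ranked first among the lower genes by the smaller of the 2 libraries' ratios. Prelp was at 985, 649, 307 and 58.8 CPM in Control and 731, 604, 321 and 54.9 CPM in Dach1OE, and C1qtnf3, a secreted protein of growth plate cartilage, at 454, 308, 204 and 42.9 CPM in Control and 472, 371, 132 and 27.3 CPM in Dach1OE. The other chondrocytes had Ppa1 at 4860.4 and 4171 CPM and C1qtnf3 at 1059 and 1182 CPM. Sox9 was at 1680.4, 1475, 1021 and 557 CPM in Control and 1679, 1385, 915 and 477 CPM in Dach1OE, and Col2a1 was at 67853 and 64680.1 CPM in the last range of Control and Dach1OE. Cdkn1c was at 3177, 3242, 2442 and 1486 CPM in Control and 3475, 3593, 3037 and 1446 CPM in Dach1OE, while Cdkn1a did not share that order, at 452, 555, 705 and 533 CPM in Control and 339, 431, 489 and 674 CPM in Dach1OE.

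Genes of protein secretion and of hypoxia and glycolysis were among the lists with medians below that of all genes along the range, as were those of osteoblasts and osteocytes (-1.42 in Control and -1.83 in Dach1OE), the cell cycle and cartilage collagens (-0.65 in Control and -0.72 in Dach1OE). Over the 19 measured genes of the unfolded protein response and secretory pathway the median log2 ratio of the last range to the first was -1.02 in Control and -0.81 in Dach1OE, and over the 16 genes of hypoxia and glycolysis -1.02 in Control and -0.98 in Dach1OE. Hspa5, the chaperone BiP, differed from 1472 to 435 CPM in Control and from 1422 to 607 CPM in Dach1OE. Serpinh1, the collagen chaperone, differed from 3557 to 1144 CPM in Control and from 3373 to 1106 CPM in Dach1OE, and Ldha, lactate dehydrogenase, from 734 to 362 CPM in Control and from 808 to 323 CPM in Dach1OE. Within the hypoxia list Epas1, the gene of HIF-2 alpha, and Adm, adrenomedullin, were the reverse, with Epas1 from 30.1 to 115 CPM in Control and from 15.8 to 88.2 CPM in Dach1OE and Adm from 3.20 to 54.0 CPM in Control and from 6.10 to 31.7 CPM in Dach1OE.

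Genes that cell dissociation induces were lower in the last range. Jun differed from 1612 to 156 CPM in Control and from 1141 to 158 CPM in Dach1OE, Fosb from 1304 to 156 CPM in Control and from 994 to 157 CPM in Dach1OE and Zfp36 from 2346 to 361 CPM in Control and from 1919.8 to 409 CPM in Dach1OE, with a median over the 11 listed genes of -2.55 in Control and -1.93 in Dach1OE. Their part in the other differences along the range was not tested.

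**Figure D2:**
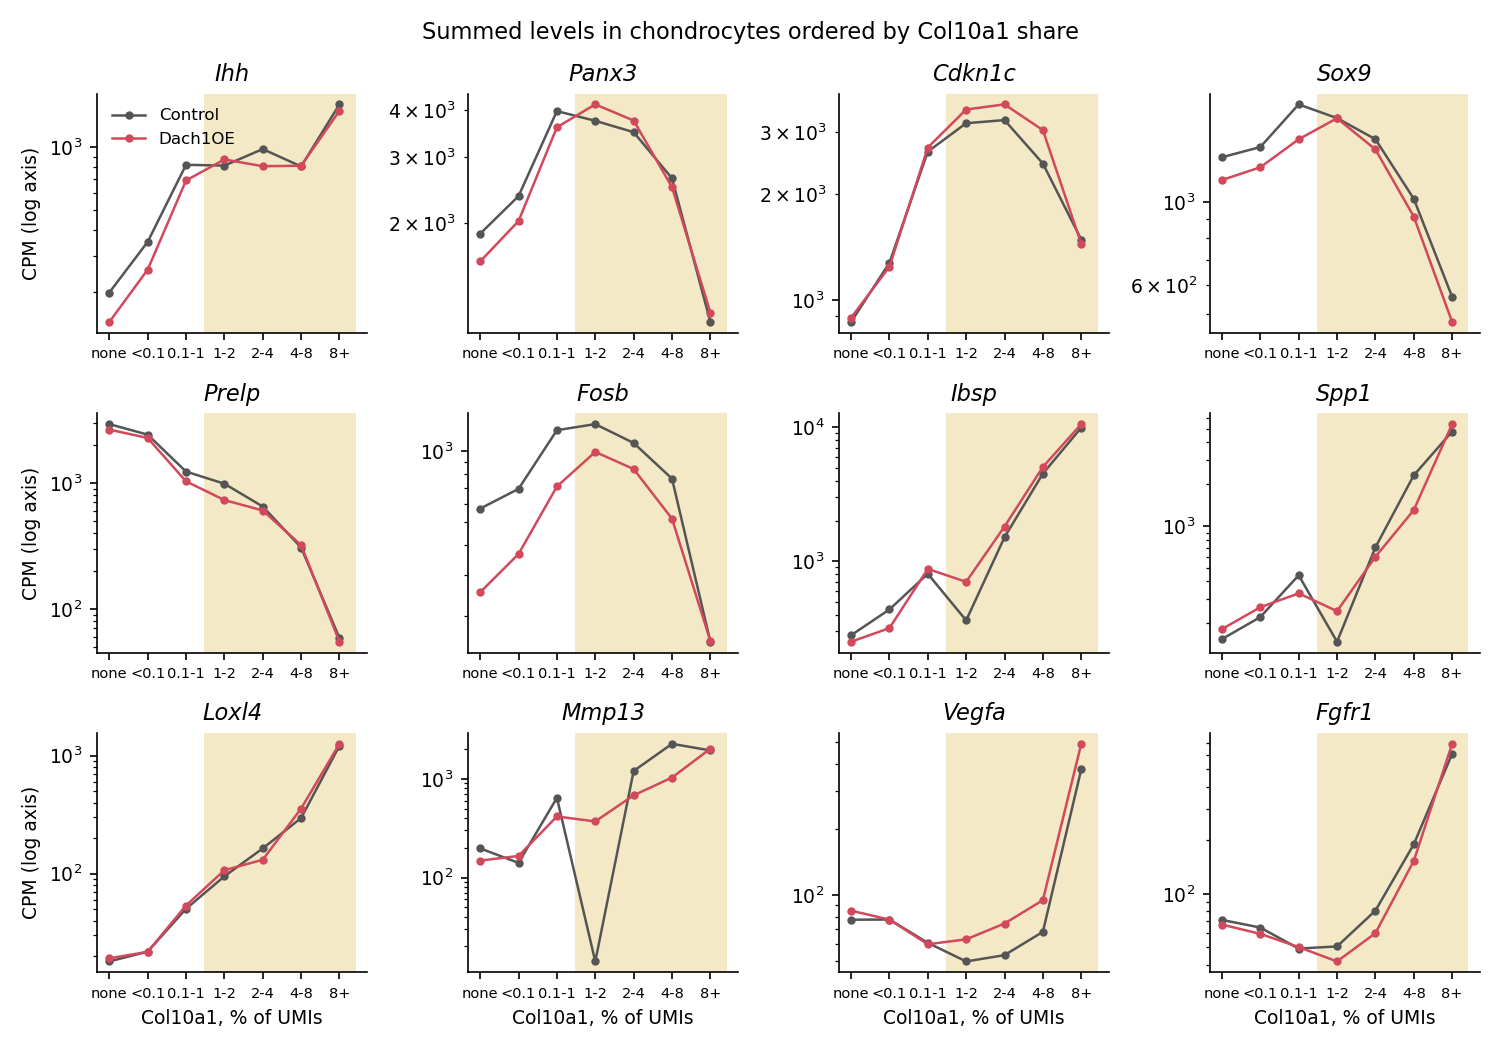
Summed level of 12 genes (y axis, CPM, log axis) in chondrocytes ordered by the Col10a1 share of their UMIs (x axis, percent), from cells without a Col10a1 UMI to cells with 8% or more, in Control and Dach1OE; the shaded ranges are the Col10a1-high cells, and the points are single sums without error bars. Ibsp, Spp1, Loxl4, Vegfa and Fgfr1 are highest in the last range of both libraries, and Panx3, Sox9, Prelp and Fosb are lowest there.

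Shares of cells with a UMI were compared at equal depth. Every cell was drawn down to 2000 UMIs, which left out 34 Control and 39 Dach1OE members with fewer. Ibsp then had a UMI in 16.5% (10.3 to 24.6%) of the cells at 1% to 2% Col10a1 and 98.6% (94.9 to 99.8%) of those at 8% or more in Control, and in 22.2% (15.9 to 29.6%) and 97.2% (94.5 to 98.8%) in Dach1OE. In ECs, which should lack it, the share was 9.21% and 8.79%, below the first range of Control and far below the last. ECs were shallower before thinning, with a median of 3115 UMIs in Control and 2987.5 in Dach1OE.

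Mmp13 had a UMI in 1.74% and 30.7% of the first and last range in Control and in 5.23% and 36.3% in Dach1OE, against 5.77% and 4.96% of ECs. In the first range the summed level was 14.1 and 371 CPM, against 180.2 and 116 CPM in ECs, so no order is read from the shares of the first range and ECs. Vegfa had a UMI in 7.83% and 37.9% in Control and in 9.80% and 46.3% in Dach1OE, with ECs at 8.26% and 9.94%. Panx3 was found in 93.0% and 72.1% in Control and 98.7% and 73.7% in Dach1OE, and so remained detectable in most cells of the last range. Over all Col10a1-high cells Ihh had a UMI in 66.9% and 68.6%, against 22.6% and 19.2% of the other chondrocytes and 0.413% and 0.630% of ECs.

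Cells with UMIs of both Ihh and the late gene Mmp13 were a minority. At this depth any Mmp13 UMI was found in 15.9% of cells in Control and 16.7% in Dach1OE, which bounds the share with both. At the same depth 5.94% of cells in Control and 7.47% in Dach1OE had a UMI of both, 9.96% of cells in Control and 9.25% in Dach1OE of Mmp13 alone, and 23.2% of cells in Control and 22.2% in Dach1OE of neither. In the cells with Col10a1 at 8% or more, both were found in 15.7% of cells in Control and 19.2% in Dach1OE. Ibsp and Spp1 shared 21.8% of cells in Control and 25.4% in Dach1OE, where any Spp1 UMI was found in 23.6% and 27.0%. At 2000 UMIs a cell can lack a UMI of a gene it expresses, and free RNA can add one.

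**Figure D3:**
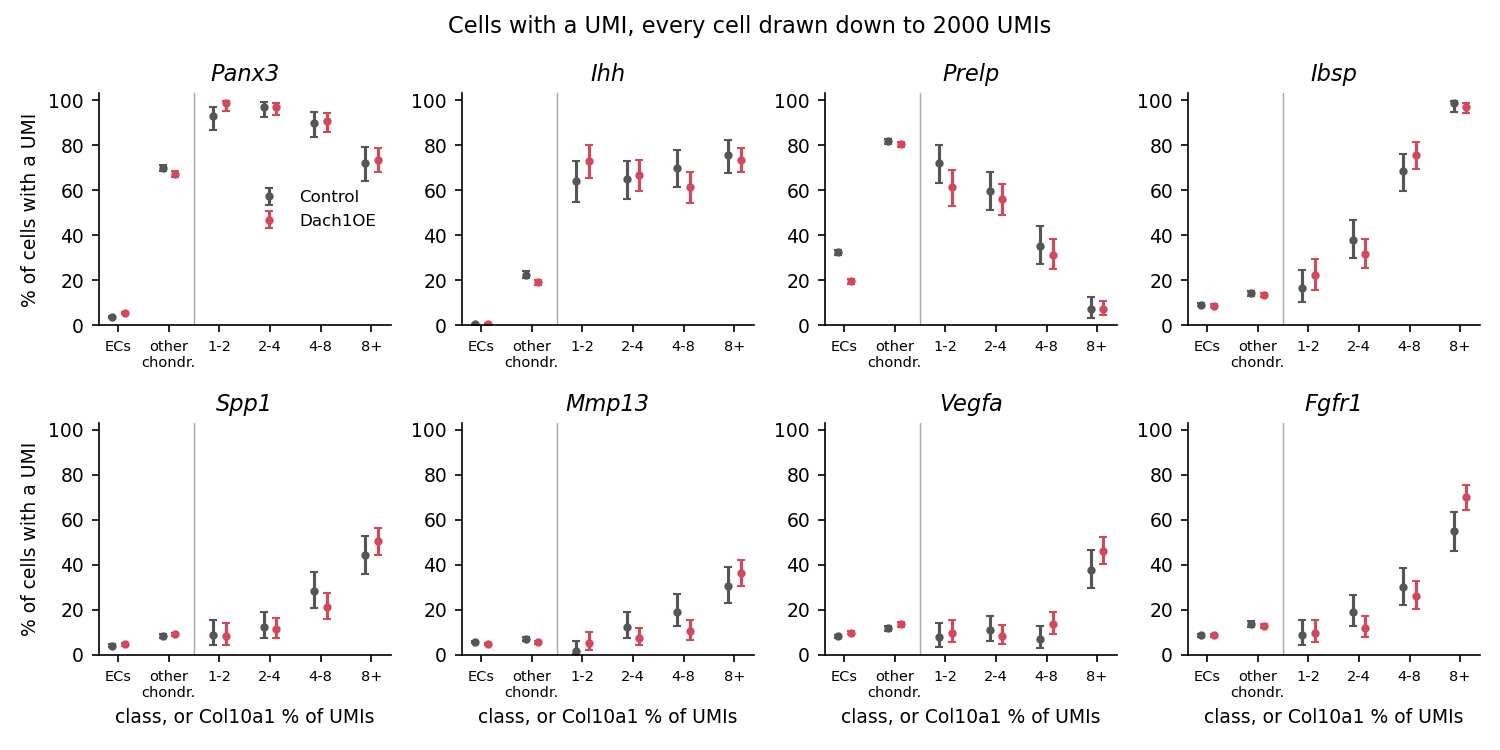
Percent of cells with a UMI (y axis) of 8 genes after every cell was drawn down to 2000 UMIs, in ECs, other chondrocytes and the 4 Col10a1 ranges of the Col10a1-high cells (x axis, percent of UMIs), in Control and Dach1OE; bars are 95% Clopper-Pearson intervals. Ibsp reaches 98.6% and 97.2% in the last range, and Prelp is at 7.14% and 7.12%.

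Col10a1-high chondrocytes took a larger share of the Dach1OE library. They were 2.10% (1.93 to 2.28%, 556 of 26466 cells) in Control and 3.01% (2.82 to 3.21%, 882 of 29317 cells) in Dach1OE, a difference of 0.908 percentage points (0.646 to 1.17). Chondrocytes as a whole were also a larger share, 16.5% in Control and 20.9% in Dach1OE. Among chondrocytes the Col10a1-high cells were 12.7% (11.8 to 13.8%, 556 of 4363 cells) in Control and 14.4% (13.5 to 15.3%, 882 of 6130 cells) in Dach1OE, a difference of 1.64 percentage points (0.311 to 2.96). A single library per group cannot show how far such shares vary between mice.

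The share was also taken in cells of each sex. Cells were assigned by a UMI of Xist with none of 4 Y-linked genes, or the reverse. Among cells with Xist the Col10a1-high share was 2.56% in Control and 2.96% in Dach1OE, a difference of 0.399 percentage points (-0.0620 to 0.865) whose interval included 0. Among cells with Y-linked UMIs it was 2.97% and 4.93%, a difference of 1.96 percentage points (1.30 to 2.61). Each sex can stand for as few as 1 mouse of a library, so sex and mouse cannot be told apart. As a share of chondrocytes the differences were 0.587 percentage points (-1.42 to 2.59) with Xist and 2.38 percentage points (-0.295 to 4.94) with Y-linked UMIs, and both intervals included 0.

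The range with the most Col10a1 was also larger in Dach1OE. Cells with Col10a1 at 8% or more of UMIs were 26.4% (22.8 to 30.3%, 147 of 556 cells) in Control and 33.1% (30.0 to 36.3%, 292 of 882 cells) in Dach1OE, a difference of 6.67 percentage points (1.80 to 11.4). For Control and Dach1OE this share was 29.7% (24.2 to 35.7%) and 28.8% (23.5 to 34.5%) of the Xist cells, and 18.3% (12.9 to 24.8%) and 32.9% (28.1 to 38.0%) of the Y-linked cells. The point estimates were in opposite orders in the 2 kinds of cells. The intervals count cells of 1 library per group, and Col10a1 chose the cells, so these are descriptions. Cells assigned to neither sex had 31.2% (23.2 to 40.1%) and 38.5% (32.3 to 45.0%). The difference between the sexes was not tested.

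**Figure D4:**
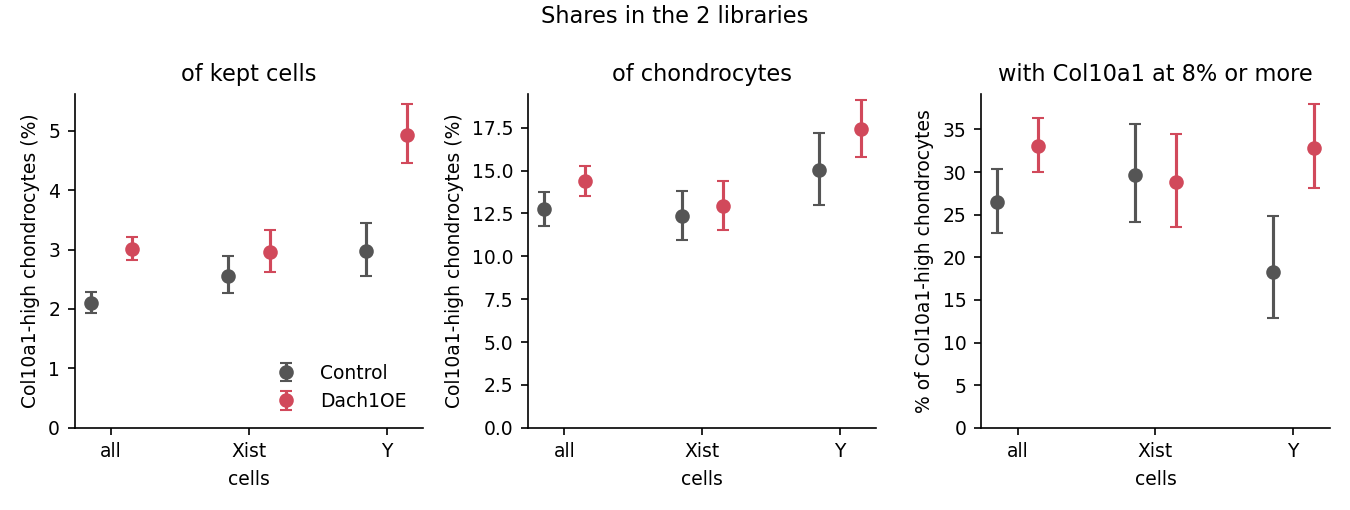
Shares of cells (y axis, percent, from 0) in Control and Dach1OE for all cells, Xist cells and Y-linked cells (x axis): Col10a1-high chondrocytes among cells that passed the limits (left), among chondrocytes (middle), and cells with Col10a1 at 8% or more among the Col10a1-high cells (right). Bars are 95% Clopper-Pearson intervals, over cells of 1 library per group; Dach1OE is above Control in each panel for all cells, and the right panel has the reverse order in Xist cells.

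Gene levels in the Col10a1-high chondrocytes were close between the libraries. Of 10377 genes, 53 (0.511%) were at least 2-fold higher in Dach1OE and 81 (0.781%) at least 2-fold lower, with a median log2 ratio of -0.0052. In the other chondrocytes 52 of 14786 genes (0.352%) were at least 2-fold higher and 156 (1.06%) lower. These are counts of sizes, not of tests.

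Of the markers, Ihh and Panx3 had log2 ratios of Dach1OE over Control of -0.027 (95% interval -0.073 to 0.019) and -0.012 (95% interval -0.039 to 0.015), and of 0.0075 and 0.023 with TMM scaling, so their direction turned with the scaling. Col10a1, by which the cells were chosen, was at 0.17 (95% interval 0.17 to 0.18), which only describes the chosen cells. Fxyd3 was lower in Dach1OE at -0.59 (95% interval -0.64 to -0.55), and it was lower by more in the other chondrocytes, at -1.29 (-1.33 to -1.25). At equal depth Fxyd3 had a UMI in 75.3% and 65.0% of the Col10a1-high cells and in 37.1% and 17.6% of the other chondrocytes of Control and Dach1OE. In all 4 Col10a1 ranges it was lower in Dach1OE than in Control.

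Among late genes, Vegfa was at 121 and 186 CPM in Control and Dach1OE, a log2 ratio of 0.62 (95% interval 0.49 to 0.74), and was higher in Dach1OE in each of the 4 ranges. In the other chondrocytes its ratio was 0.081 (0.010 to 0.15). At equal depth the share of cells with a Vegfa UMI was lower in Dach1OE at 2% to 4% Col10a1, at 10.9% and 8.42%, and higher in the other ranges. Ibsp had a ratio of 0.35 (95% interval 0.33 to 0.38) and Spp1 of 0.13 (95% interval 0.10 to 0.16), and Mmp13 was lower at -0.32 (95% interval -0.36 to -0.28). Yet Mmp13 had a UMI at equal depth in 15.9% of the Col10a1-high cells of Control and 16.7% of those of Dach1OE, so the share of cells was not lower. The larger part that cells with 8% or more Col10a1 took of the Dach1OE members moves with the ratios of Vegfa, Ibsp and Spp1 and not with that of Mmp13, and its part was not tested. In that range alone Control and Dach1OE had Ibsp at 9916 and 10536 CPM and Mmp13 at 1945 and 2024 CPM. The median over the 6 measured late genes was 0.24.

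Matrix genes of cartilage were slightly lower. The 7 cartilage collagens all had ratios below 0, with a median of -0.075, but with TMM scaling, which moved the median of all genes to 0.029, their median was -0.041 and Col2a1 was above 0, at 0.028. With UMI totals as the scale 16 of the 19 measured other matrix genes were below 0, with a median of -0.12. Acan, the main cartilage proteoglycan, was at -0.23 (95% interval -0.24 to -0.21), and its ratio in the other chondrocytes was -0.28 (-0.29 to -0.27). In hedgehog and PTHrP signalling the median of the 7 measured genes was -0.065, and none was 2-fold apart.

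The type I collagen genes of osteoblasts were higher in Dach1OE, with Col1a1 at 0.66 (95% interval 0.63 to 0.69) and Col1a2 at 0.62 (95% interval 0.59 to 0.65). The level of Col1a1 in cells that should lack it was also higher in Dach1OE, at 7025 and 9966 CPM in Ptprc-positive cells and 5938 and 8717 CPM in ECs, against 1537 and 2429 CPM in the Col10a1-high chondrocytes, and its part in these ratios was not tested. In the Col10a1-high cells with Xist alone Col1a1 was lower in Dach1OE, at -0.58. Of the Col1a1 UMIs of these chondrocytes, 1 Xist cell of Control held 1765 of 9594. In Dach1OE 1 Y-linked cell held 3462 of 23207. Cells in which Col1a1 and Bglap together made up 1% or more of UMIs were 1.62% of the members of Control and 3.63% of those of Dach1OE. Bglap, the gene of osteocalcin, was at 0.017 (95% interval -0.092 to 0.13). Over the 11 measured of 12 osteoblast and osteocyte genes the median was 0.11, and their summed level was 40804 and 40872 CPM, of which Sparc, a matrix protein gene that chondrocytes also express, made up 36959.6 and 35141 CPM.

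Marrow stroma genes were lower. Cxcl12, the chemokine of marrow stroma, was at 208 and 104 CPM, a ratio of -1.01 (95% interval -1.13 to -0.89), and its ratio in the other chondrocytes was -0.89 (-0.92 to -0.86). In Ptprc-positive cells, as a measure of free RNA, Cxcl12 was at 646 and 392 CPM. The 6 marrow stroma genes had a median of -0.67 in the Col10a1-high cells and -0.74 in the other chondrocytes, and 5 of the 6 were below 0. Genes of the insulin-like growth factor system went both ways, with 5 of 8 measured genes above 0 and a median of 0.034. Among its binding proteins Igfbp5 was at -0.92 (95% interval -1.05 to -0.78), Igfbp4 at -0.80 (95% interval -0.96 to -0.64) and Igfbp7 at 0.26 (95% interval 0.18 to 0.34).

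Genes induced by dissociation were also lower. The 11 listed genes had a median of -0.50 in the Col10a1-high cells and -0.98 in the other chondrocytes, with 9 of 11 below 0. Zfp36 was at -0.50 (95% interval -0.53 to -0.46), Atf3 at -0.58 (95% interval -0.68 to -0.49) and Dusp1 at -0.59 (95% interval -0.68 to -0.49). The list summed to 7862 and 5939 CPM. Their part in the other ratios was not tested.

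Markers of other cells were found at low summed levels, apart from those of bone and marrow stroma. Of the 8 endothelial genes all were under 10 CPM in both libraries and their sum was 36.1 and 41.4 CPM in the 2 libraries, with Cdh5 at 0 by the rule. The 10 blood genes summed to 59.4 and 72.6 CPM, with Ptprc at 0 by the rule, and the 6 osteoclast genes to 33.2 and 34.0 CPM. The 6 marrow stroma genes summed to 275 and 142 CPM, most of it Cxcl12, and the 8 mural and fibroblast genes to 89.3 and 92.3 CPM. Prg2, a granule protein gene of eosinophils, was the remaining gene of the 10 furthest below the other chondrocytes, at 3.53 and 3.56 CPM against 55.2 and 62.5 CPM. Col1a1 and Bglap together made up 1% or more of UMIs in 9 of 556 members of Control and 32 of 882 of Dach1OE.

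The genes furthest apart, taken by the bound of the interval nearest 0 among genes with the same sign in cells of either sex, were mostly low. Gm13305 had 3 UMIs in 3 cells of Control and 57 in 54 cells of Dach1OE, a log2 ratio of 3.63 (95% interval 2.01 to 5.95), and 4.03 (3.28 to 4.88) in the other chondrocytes. Car5a, a mitochondrial carbonic anhydrase, was lower, with 45 UMIs in 43 cells of Control and 14 in 14 cells of Dach1OE, -2.30 (95% interval -3.28 to -1.41), and -2.42 (-2.83 to -2.02) in the other chondrocytes. Both genes lay on the same side in both classes of chondrocytes, and no single cell held more than 2 UMIs of either. Car5a was also lower in Dach1OE in osteoblasts (2.40 and 0.113 CPM), ECs (2.86 and 0.380 CPM) and Ptprc-positive cells (6.88 and 1.33 CPM). Its difference was thus not particular to chondrocytes.

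Others were carried by few cells. Mmp9 had 59 UMIs in 24 cells of Control and 328 in 42 cells of Dach1OE, a ratio of 1.86 (95% interval 1.46 to 2.29), and the highest cell of Dach1OE held 80 of the UMIs; in Ptprc-positive cells Mmp9 was at 12.7 and 83.7 CPM. Prg4, or lubricin, had 278 UMIs in 17 cells of Control and 29 in 23 cells of Dach1OE and a ratio of -3.88 (95% interval -4.48 to -3.32), but 252 of the Control UMIs lay in 1 cell, and without the top cell of each library the ratio was -0.67 (-1.52 to 0.18). Ppbp, a platelet chemokine gene, had 343 of its 574 Control UMIs in 1 cell and a ratio of -2.46 (95% interval -2.72 to -2.20), or -1.33 (-1.64 to -1.02) without the top cells. Sfrp5, a Wnt inhibitor of the upper growth plate, had 44 of its 53 Control UMIs in 1 cell and -1.76 (95% interval -2.52 to -1.04), or -0.20 (-1.57 to 1.23) without. For Prg4 and Sfrp5 the interval then included 0, and Sfrp5 was higher in Dach1OE, at 0.80, in members with at least 4000 UMIs, at 0.80 with 4 of 5 cartilage genes required and at 2.70 with a Col10a1 minimum of 2%.

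Other named genes on the higher side had ratios of 2.06 (0.97 to 3.34) for Mal2, 1.40 (0.81 to 2.03) for Hbb-bt, 1.79 (0.80 to 2.93) for Gm26909, 1.78 (0.67 to 3.08) for Cenph, 1.26 (0.65 to 1.92) for Tnn and 0.98 (0.64 to 1.33) for Gon7. With equal weight per cell Hbb-bt was at 0.55 and Cenph at 0.92, under 2-fold, while Mal2, Gm26909 and Tnn stayed at least 2-fold higher. For Hbb-bt 1 cell held 24 of the 121 UMIs of Dach1OE and 1 cell 10 of the 30 of Control. On the lower side were Sod3 at -2.22 (-2.70 to -1.76), Postn at -2.31 (-3.12 to -1.57), Cdhr1 at -1.89 (-2.64 to -1.18), Mfap5 at -2.06 (-3.05 to -1.14), Efemp1 at -1.51 (-1.95 to -1.07) and Dqx1 at -1.28 (-1.58 to -0.99). Cdhr1 had 58 UMIs in 15 cells of Control and 24 in 9 cells of Dach1OE. In Xist cells the intervals of Cdhr1, at -0.94 (-1.99 to 0.047), and Mfap5, at -0.19 (-1.58 to 1.19), included 0. In Y-linked cells those of Gm26909, at 0.84 (-0.53 to 2.45), and Cenph, at 1.56 (-0.63 to 4.78), did so. Of the Control UMIs 38 of 65 of Postn and 14 of 38 of Mfap5 lay in 1 cell, and without the top cell of each library the ratios were -1.56 (-2.61 to -0.58) and -1.88 (-3.11 to -0.76). Sod3, an extracellular superoxide dismutase, had 158 UMIs in 29 cells of Control and 52 in 33 cells of Dach1OE and a ratio of -0.084 (-0.20 to 0.031) in the other chondrocytes, whose interval included 0.

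**Figure D5:**
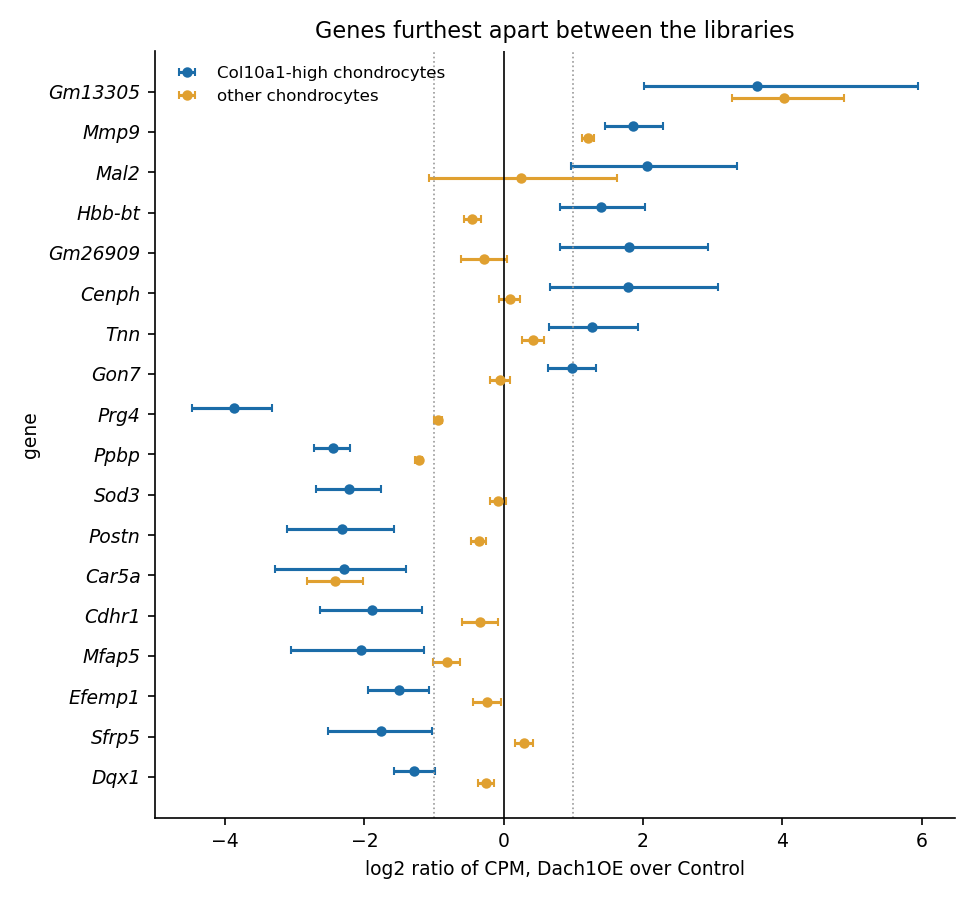
Log2 ratio of CPM, Dach1OE over Control (x axis), of 8 of the 10 genes furthest above and of the 10 furthest below 0 (y axis) in the Col10a1-high chondrocytes and in the other chondrocytes; bars are 95% intervals for counting error and dotted lines mark a 2-fold difference. The point estimates of both classes lie on the same side for all of those shown but Hbb-bt, Gm26909, Gon7 and Sfrp5.

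Growth factor pathways were close between the libraries. Of 20 measured BMP and TGF-beta genes none was 2-fold apart, with a median of 0.022, and Bmp2 and Bmp6 lay on opposite sides at -0.40 (95% interval -0.51 to -0.29) and 0.21 (95% interval 0.11 to 0.31). Of 9 measured FGF genes none was 2-fold apart, with Fgfr1 at 0.25 (95% interval 0.15 to 0.34). Of 15 Wnt genes 1 was, Sfrp5, with most of its Control UMIs in 1 cell, and the list had a median of 0.093, and Wnt5a was at 0.42 (95% interval 0.18 to 0.67). Of 12 measured genes for factors secreted towards vessels and osteoclasts 3 were at least 2-fold lower, namely Cxcl12, Angptl4 at -1.21 (95% interval -1.92 to -0.53) and Ptn at -1.16 (95% interval -2.01 to -0.33). Angptl4 had 47 and 31 UMIs in the Col10a1-high cells of Control and Dach1OE, at 7.53 and 3.24 CPM. Angptl4 was also lower in Dach1OE in osteoblasts (8.75 and 2.04 CPM), ECs (122 and 59.8 CPM), other chondrocytes and Ptprc-positive cells. Its difference was thus not particular to the Col10a1-high cells, and the part of free RNA in it was not tested. Lox, the lysyl oxidase that cross-links collagen, was at 0.38 (95% interval 0.25 to 0.51) and at 0.38 (0.31 to 0.45) in the other chondrocytes. The medians of the hypoxia and glycolysis, unfolded protein response and mineralization lists were 0.043, -0.051 and -0.0016, and the 14 cell cycle genes had a median of 0.29, against 0.15 in the other chondrocytes.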

How the data were processed

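Per the labels and methods, cells were captured with BD Rhapsody whole transcriptome analysis and sequenced on an Illumina NextSeq 500. The deposited tables list, for each cell and gene, whole counts of reads and of UMIs that the authors made with the BD pipeline (version 1.11 in the file headers, where the methods give another), GRCm38 and GENCODE vM19, intronic reads included, and with the pipeline's refined cell calling. The UMI counts with error correction were used. The tables held 28720 cells in Control and 32028 in Dach1OE, with 143986818 and 166999989 UMIs.

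The members and the 29 gene lists were chosen with earlier results of these data known. UMIs were summed per class and scaled to 1000000 (CPM). Ratios carry 95% conditional binomial intervals, shares Clopper-Pearson intervals and differences of shares Newcombe intervals; UMIs of 1 cell are not independent, so these cover counting error alone. Genes with at least 50 UMIs in the members of both libraries together entered. A list gene outside this filter is counted as not measured. Beside the marker and list genes, genes were named by rule: the 10 highest and 10 lowest ratios of Dach1OE over Control by the bound nearest 0 (same sign in both sexes, without Xist, Y-linked and mitochondrial genes), the 15 highest and 10 lowest of members over other chondrocytes (at least 50 CPM in the higher class) and the 8 highest and 8 lowest along the Col10a1 range (at least 100 CPM), by the smaller ratio of the 2 libraries; Irx5, Disp1 and other list genes were picked to describe their group. ECs were cells with Cdh5 and Pecam1 UMIs, and ECs, osteoblasts and Ptprc-positive cells had under 3 of the cartilage genes and none of the other classes' Ptprc or Cdh5. Scripts ran in Python 3.11.15 with numpy 2.4.6, scipy 1.17.1, pandas 2.3.3 and Scrublet in scanpy 1.11.5, were tested on simulated data, and edgeR 4.0.16 gave TMM factors as an alternative. Members were not filtered for doublets. Of the 10 highest ratios of Dach1OE over Control, 2 are not reported here. The promoter table matched 13 of the 20 genes named as higher by the last 2 rules.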

Additional observations from a re-analysis of the deposited data

Results flagged for a closer look

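Of 332 genes examined in the Col10a1-high chondrocytes, 5 had a log2 ratio of Dach1OE over Control of at least 0.5 in size and of opposite sign in Xist and in Y-linked cells. The differences between the sexes were not tested, and each sex can stand for 1 mouse per library. Col1a1 was at -0.58 in Xist cells and 2.84 in Y-linked cells, from 2110.2 and 1409 CPM and from 264 and 1894 CPM, and 1 cell held 3462 of the 8010 UMIs of Dach1OE Y-linked cells and 1 cell 1765 of the 6225 of Control Xist cells. Without the top cell of each library Col1a1 was at 1519 and 1205 CPM in Xist cells and 253 and 1084 CPM in Y-linked cells, so both orders stayed. Bglap was at -1.66 in Xist cells and 0.54 in Y-linked cells; 1 cell held 123 of the 455 UMIs of Dach1OE Y-linked cells, and without the top cell of each library the Y-linked cells were at 64.8 and 78.7 CPM. Dcn, the proteoglycan decorin, was at -0.52 in Xist cells and 0.55 in Y-linked cells. Dkk1, a Wnt inhibitor, was at -1.43 in Xist cells and 3.91 in Y-linked cells, with 1 UMI in the Control Y-linked cells. Hspa1a, a heat shock gene, was at 0.94 in Xist cells and -0.55 in Y-linked cells. The share of Col10a1-high cells with Col10a1 at 8% or more differed by -0.911 percentage points in Xist cells and 14.6 in Y-linked cells.

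Outside the comparisons, 106 cells of Control and 161 of Dach1OE had Col10a1 at 1% or more of their UMIs together with a Cdh5 UMI, and were left out by the rule. Their median was 1 Cdh5 UMI per cell, Scrublet marked 23.6% and 29.8% of them, and Col10a1 was at 40757 and 50056 CPM. The endothelial genes Pecam1 and Kdr were at 112 and 172 CPM in Control and 199 and 186 CPM in Dach1OE, against 8.17 and 7.54 CPM of Kdr in the Col10a1-high chondrocytes.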

How the results depend on the processing

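With 1 library per group, leaving out a replicate was not possible. No paired analysis was possible because the groups hold 1 library each. The share of Col10a1-high cells among cells that passed the limits was higher in Dach1OE under every alternative run; the difference was 1.51 percentage points in cells with at least 4000 UMIs, 1.96 in Y-linked cells and 0.399 in Xist cells, where its interval included 0. Among chondrocytes the difference was 1.23 points with a mitochondrial limit of 10%, 0.587 in Xist and 2.38 in Y-linked cells, each with an interval that included 0. The share with Col10a1 at 8% or more was reversed in Xist cells, at -0.911 points, and 14.6 points in Y-linked cells. Counting the cells with a Cdh5 UMI as members, an alternative chosen after seeing the data, gave 1.05 points of the cells that passed the limits and 1.18 points of the chondrocytes. Genes at least 2-fold higher and lower in Dach1OE numbered 23 and 14 of 5791 after thinning to 2000 UMIs, 35 and 46 of 7915 in Xist cells, 711 and 1522 of 18015 with a minimum of 1 UMI in each library, and 5 and 10 of 6567 with 200 UMIs; 35 were higher without cells marked by Scrublet, and 37 of 8040 lower in Y-linked cells. The construction of these alternatives leaves fewer cells or another number of genes; beyond that the cause was not tested. TMM scaling gave 61 and 70, and equal weight per cell 78 and 109. Of 465 gene ratios under the alternatives 447 kept their sign and 18 did not; of ratios of at least 2-fold 3 changed sign, all of Sfrp5, and beside these 109 lay outside the interval of the ratio reported. Sfrp5 was reversed, at 2.70 with a Col10a1 minimum of 2%, at 0.80 with 4 of 5 cartilage genes and at 0.80 in cells with at least 4000 UMIs, and the cause was not tested. Of 140 list medians 121 kept their sign and 19 did not; 11 moved by at least 0.2. Leaving out the top cell of each library, and all alternatives along the Col10a1 range and for the share at 8% or more, were chosen after seeing the data; along the range 228 of 228 ratios kept their sign and 41 lay outside the interval of the ratio reported. The members' depth limits ratios of genes with few UMIs, of which 2831 of the 10377 were under 10 CPM in both libraries.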
